A study of Sus scrofa with 12 samples.

Results

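Integrins and laminins were examined in the longissimus dorsi, a large muscle along the spine, of Laiwu and Yorkshire pigs. The members were the genes of the deposited table whose symbol names an integrin alpha subunit (17), an integrin beta subunit (8) or a laminin chain (11), 36 of the 23271 genes listed. Poly(A) RNA was sequenced in 6 libraries of Laiwu, a local breed of China that stores much fat within its muscles, and 6 of Yorkshire, a lean commercial breed, from animals of equal weight. No treatment is described for either breed, and the sources used here do not give age or sex. The labels do not say that each library came from its own animal, so the p-values reflect only how these libraries vary.

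Laminins are cross-shaped proteins built of one alpha, one beta and one gamma chain. They assemble into the basement membrane, the thin matrix sheet around each muscle fibre and each capillary. Integrins are receptors of the cell surface made of one alpha and one beta subunit, and they join this matrix, and collagens, fibronectin or other cells, to the actin skeleton inside. In skeletal muscle the pair of ITGA7 with ITGB1 is known as a laminin receptor of the fibre, beside dystroglycan, and defects of the laminin chain LAMA2 or of ITGA7 cause muscular dystrophies.

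Each library held 54961358 to 67285809 counts. Fibre markers stood far above all others, ACTA1 averaging 42762 FPKM (fragments per kilobase of gene, scaled to library size, so that levels of different genes can be compared). Epithelial markers summed to 0.570 to 3.46 FPKM, and 2 of the 4 averaged below 0.5 FPKM over the 12 libraries. In whole muscle, fewer cells of a type and less RNA per cell cannot be told apart. Yorkshire 5 stood apart by gene length: longer genes were lower against the median of its breed, with a Spearman's rho of -0.41 between length and deviation across 11205 genes, which are not independent, against -0.15 to 0.21 in the other 11 libraries. The tested members are long, at a median of 6.35 kb against 3.64 kb for all tested genes. Yorkshire 3 had the highest sum of 8 leukocyte markers, 27.6 FPKM, where the other 11 libraries reached at most 15.1 FPKM. Among these markers CORO1A, CD3E and CD79A were not highest in Yorkshire 3.

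Of the 36 members, 4 averaged over 20 FPKM, 8 lay between 2 and 20 FPKM, 9 between 0.5 and 2 FPKM and 15 below 0.5 FPKM, the minimum mean for testing. ITGA7, ITGB1, LAMC1 and LAMB2 together made up 72.3% of the summed FPKM of all members, on average over the 12 libraries. Counts above 0 were found in every library for 33 members. The other 3 were laminin chains at the bottom of the list: LAMA1 was listed at 0 in 10 libraries, LAMB4 in 9 and LAMC3 in 7, and their highest counts in any library were 18, 44 and 32.

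**Figure D1:**
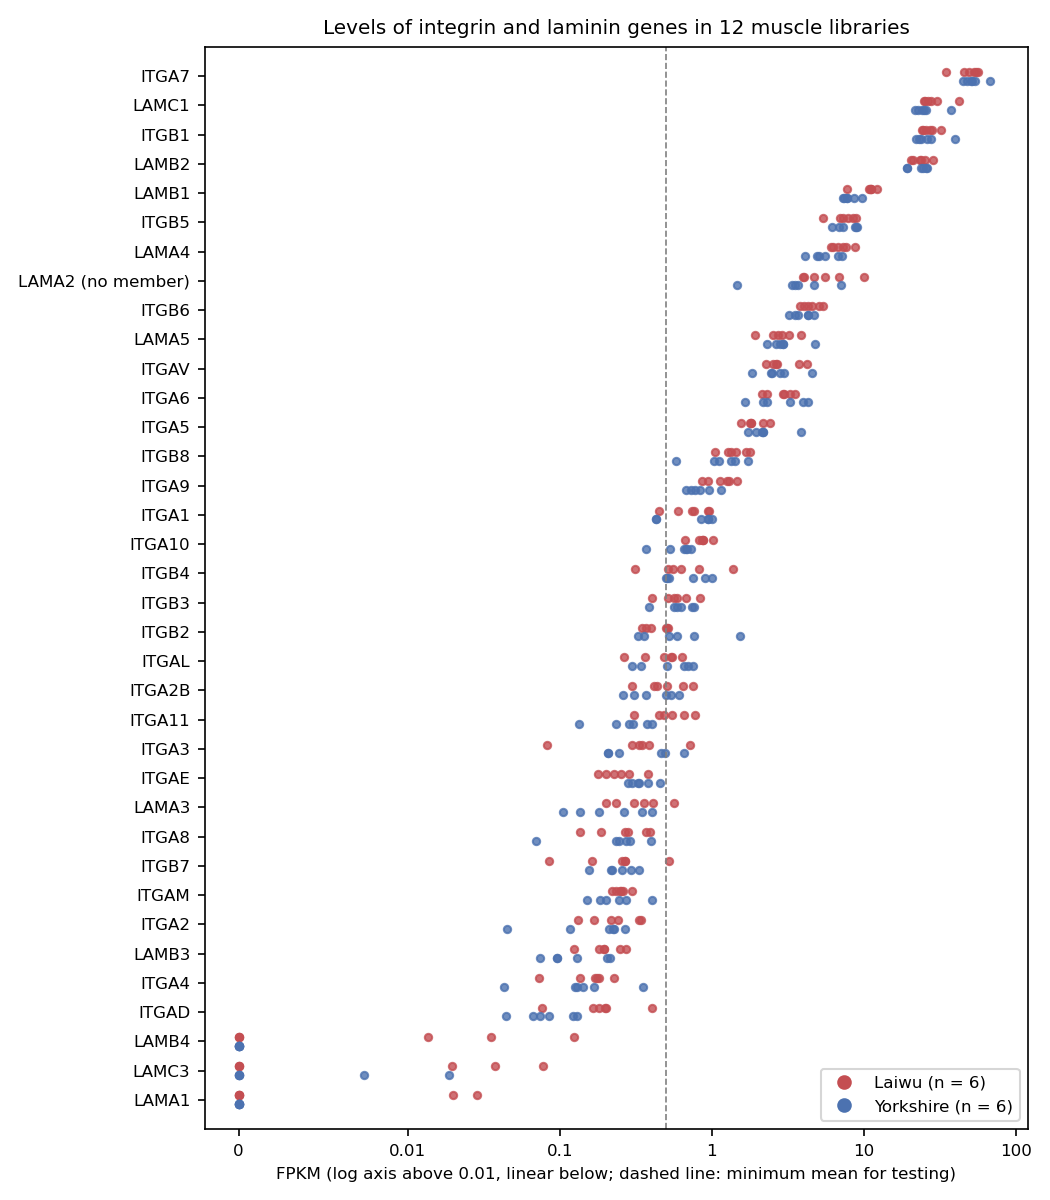
FPKM of 35 members and of LAMA2 in each library, Laiwu in red and Yorkshire in blue, on a log axis that turns linear below 0.01. ITGA7 stood highest in all 12 libraries, and the breeds overlapped for every gene drawn.

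Among the laminins, the gamma chain LAMC1, which is shared by most laminins of adult tissues, had means of 29.5 ± 6.64 FPKM (Laiwu) and 26.04 ± 5.77 FPKM (Yorkshire), where each error of a level is an SD over 6 libraries. LAMB2, a beta chain known from the nerve contact of the fibre, averaged 23.8 ± 2.92 and 23.1 ± 3.08 FPKM. It exceeded LAMB1, the beta chain of many tissues, in 12 of 12 libraries. The epithelial chains LAMA3 and LAMB3 averaged 0.294 and 0.170 FPKM over the 12 libraries.

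LAMA2, the alpha chain of the laminin of muscle fibres, carries no symbol in the deposited table and is therefore no member by the rule. It was recognised by the description of its row and is shown beside the members. Its means were 5.88 ± 2.31 FPKM (Laiwu) and 3.98 ± 1.85 FPKM (Yorkshire), and LAMA4, the alpha chain of vessel and fat cell laminins, lay above it in 10 of 12 libraries, at 7.14 ± 0.969 and 5.61 ± 1.16 FPKM. LAMA5, an alpha chain of vessel and epithelial basement membranes, averaged 2.86 ± 0.656 and 3.07 ± 0.856 FPKM. The alpha chain sum, LAMA2 included, was 16.2 ± 2.40 FPKM in Laiwu and 12.9 ± 3.06 FPKM in Yorkshire. It lay below the beta sum (34.7 ± 3.26 and 31.4 ± 3.81 FPKM) and below LAMC1 alone in 12 of 12 libraries. The deposited model of LAMA2 spans 492440 bases of chromosome 1 (33867259 to 34359698, Sscrofa11.1), whereas RefSeq's model of the same assembly spans 594330 bases from 33765412. Reads from outside the deposited model would not count towards it, and the part of this in its level was not tested.

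**Figure D2:**
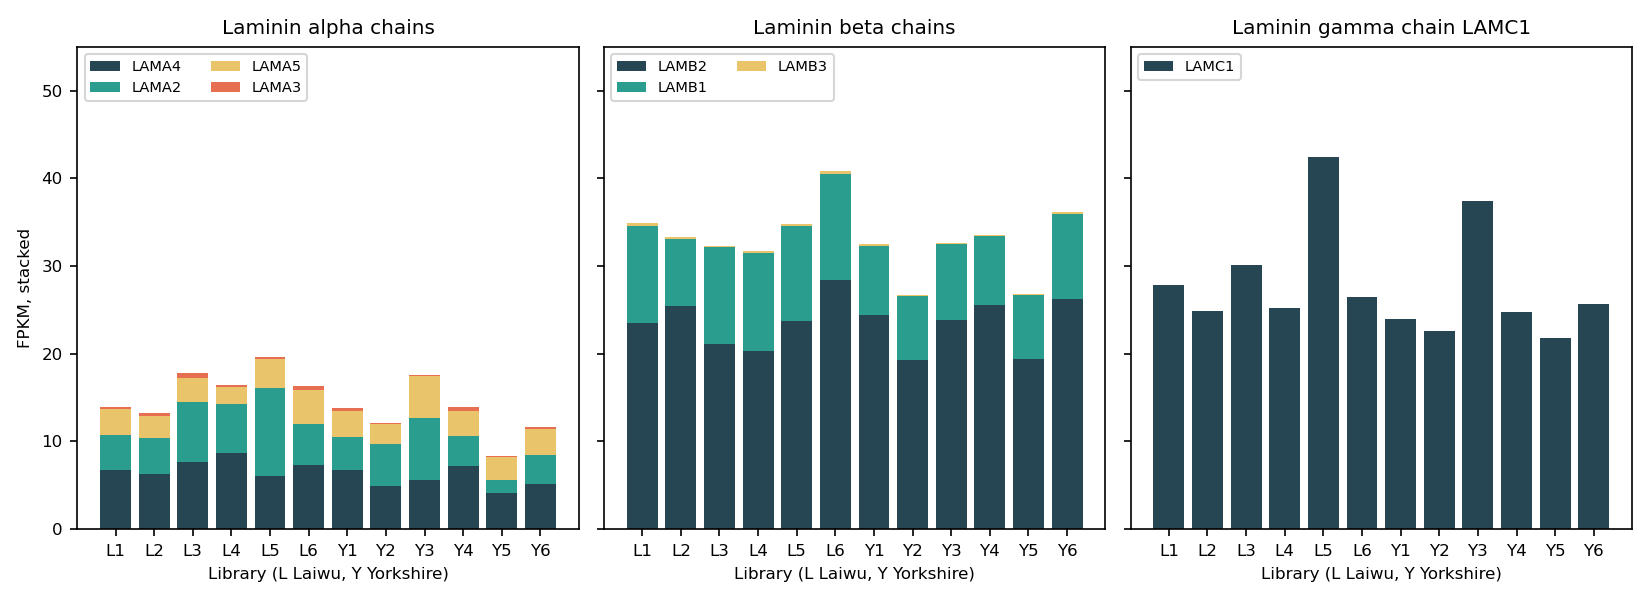
FPKM of the laminin chains stacked by library (L1 to L6 Laiwu, Y1 to Y6 Yorkshire), with alpha chains, beta chains and the gamma chain LAMC1 in separate panels on one scale. LAMA1 and LAMB4, near 0 in all libraries, are left out. The alpha sum ran from 8.34 FPKM in Yorkshire 5 to 19.7 FPKM in Laiwu 5.

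Within the alpha sum, LAMA4 held 44.7% ± 7.59 in Laiwu and 44.4% ± 7.34 in Yorkshire, LAMA2 35.3% ± 8.58 and 29.7% ± 8.61, and LAMA5 17.8% ± 4.23 and 24.1% ± 4.85. LAMB1 held 30.9% ± 4.28 of the beta sum in Laiwu and 25.9% ± 1.81 in Yorkshire. Its share ran from 23.1% to 35.2% in Laiwu and from 23.3% to 27.5% in Yorkshire, so the breeds overlapped, as they did for each of the 34 shares computed.

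Among the integrins, ITGA7 held 77.7% ± 4.55 of the alpha subunit sum in Laiwu and 79.96% ± 2.27 in Yorkshire. It ran from 34.9 to 56.5 FPKM in Laiwu (median 51.3) and from 44.6 to 67.5 FPKM in Yorkshire (median 51.2). ITGB1, the beta subunit that pairs with most alpha subunits, ran from 24.3 to 32.4 FPKM in Laiwu (median 26.5) and from 21.99 to 40.05 FPKM in Yorkshire (median 24.9). ITGA7 exceeded ITGB1 in 12 of 12 libraries, by a factor of 1.29 to 2.18. The levels of LAMC1 and ITGB1 changed order from library to library, LAMC1 being higher in 7 of 12, as did those of LAMC1 and LAMB2 (7 of 12).

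The other laminin-binding subunits were low: ITGA6, found on vessels and nerves as well, averaged 2.91 FPKM over the 12 libraries and ITGA3 0.370 FPKM. ITGAV and ITGA5, which bind fibronectin and other ligands through the RGD motif, averaged 2.95 and 2.13 FPKM. The remaining RGD-binding subunits, ITGA2B of platelets and ITGA8, averaged 0.471 and 0.262 FPKM. Of the collagen receptors, ITGA1 averaged 0.755, ITGA10 0.730, ITGA11 0.413 and ITGA2 0.211 FPKM. ITGA9 averaged 1.01 FPKM and ITGA4, a subunit of leukocytes, 0.161 FPKM.

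ITGB5, a partner of ITGAV, was the beta subunit next to ITGB1, at 7.48 ± 1.26 and 7.83 ± 1.22 FPKM. ITGB6, another partner of ITGAV that is best known from epithelia, followed at 4.52 ± 0.612 and 3.96 ± 0.555 FPKM, and it lay below ITGB5 in 12 of 12 libraries. In the same libraries the epithelial marker EPCAM averaged 0.0215 FPKM and CDH1 0.835 FPKM. ITGB6 held 10.7% ± 1.88 of the beta subunit sum in Laiwu and 9.61% ± 2.21 in Yorkshire, and ITGB1 63.6% ± 2.65 and 63.6% ± 4.02. ITGB8, ITGB4 and ITGB3 averaged 1.31, 0.701 and 0.604 FPKM. ITGB4, a laminin receptor subunit of epithelia and Schwann cells, was at 1.39 FPKM in Laiwu 6 and 0.313 to 0.825 FPKM in the other Laiwu libraries. Laiwu 6 also had the highest sums of the Schwann (12.4 FPKM) and epithelial markers (3.46 FPKM), and their part in this was not tested.

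Leukocyte integrins were low. ITGB2, the beta subunit common to leukocyte adhesion receptors, averaged 0.562 FPKM, its partners ITGAL 0.509, ITGAM 0.249 and ITGAD 0.146 FPKM, and ITGB7 and its partner ITGAE 0.254 and 0.301 FPKM. PTPRC, the CD45 antigen of all leukocytes, averaged 0.920 FPKM, and the T and B cell markers CD3E and CD79A 0.161 and 0.115 FPKM.

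The comparison asks which of these genes differ in level between Laiwu and Yorkshire muscle. Fat content cannot be told apart here from other differences between the breeds. No member passed the test. LAMB1, LAMA4, ITGA10 and ITGA9 had the smallest p-values and higher means in Laiwu, by 0.33 to 0.47 on the log2 scale, but the breeds overlapped for each of them. The quasi-likelihood test of edgeR, adjusted by Benjamini-Hochberg over all 11205 tested genes, called 0 of the 21 tested members at an adjusted p under 0.05, and 0% of all tested genes, and the smallest adjusted p was 0.912. At an unadjusted p under 0.05 stood 4 of 21 members, all of them higher in Laiwu, against 4.44% of all tested genes in either direction, 2.14% higher in Laiwu and 2.3% lower. DESeq2 had 5 members at an unadjusted p under 0.05, beside 5.08% of all genes, and limma 4, beside 3.49%. Both called 0 members at an adjusted p under 0.05, DESeq2 beside 0.00893% of all genes, a single gene. Without Yorkshire 3 and Yorkshire 5, 2 of 21 members stood at an unadjusted p under 0.05, beside 3.69% of all genes, and with no filter on FPKM 9 of 36, beside 7.37%. The median log2 fold change over the tested members was -0.01, with 10 above 0 and 11 below, beside -0.0013 and 49.7% above 0 over all tested genes. By class, 5 of 6 tested laminin chains had a value above 0 (median 0.23), as did 3 of 8 integrin alpha subunits (median -0.05) and 2 of 7 integrin beta subunits (median -0.01). The breeds' ranges did not overlap for 0 members and for 0.178% of all tested genes.

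**Figure D3:**
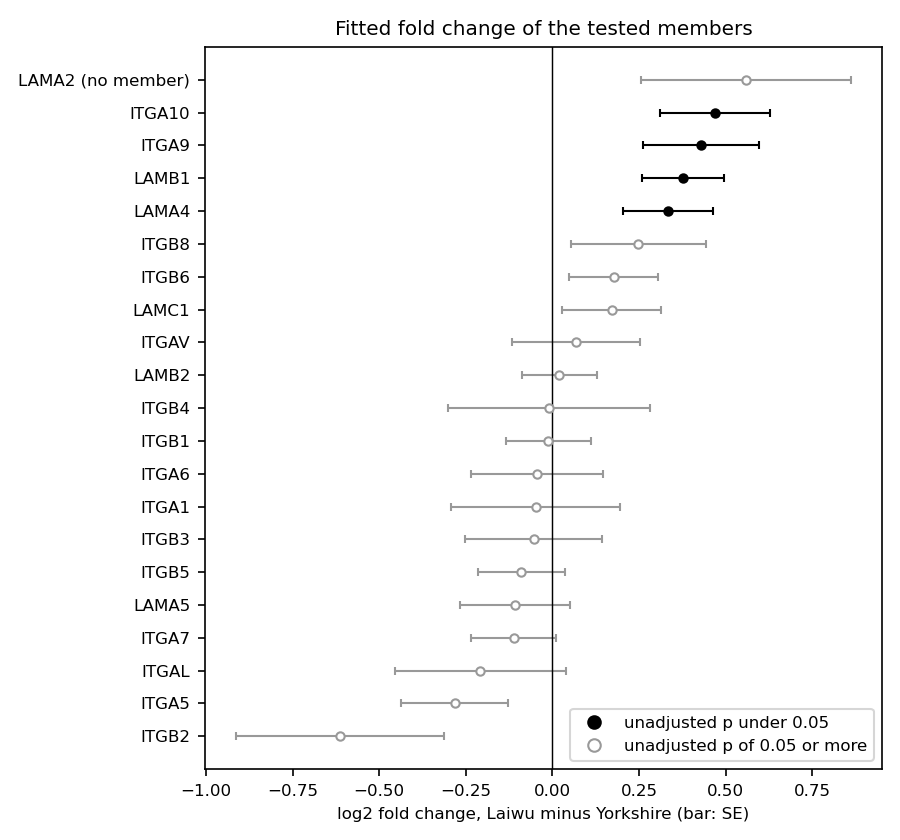
Fitted log2 fold change, Laiwu minus Yorkshire, of 20 tested members and LAMA2, with bars for the SE. The 4 filled points, ITGA10, ITGA9, LAMB1 and LAMA4, have an unadjusted p under 0.05 and an adjusted p of 0.912.

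LAMB1 (ENSSSCG00000015444; chromosome 9, 107671152 to 107772269) ran from 7.70 to 12.1 FPKM in Laiwu with a median of 11.1, and from 7.35 to 9.72 FPKM in Yorkshire with a median of 7.81. Of the Laiwu libraries 5 lay above every Yorkshire library, and Laiwu 2 lay among the Yorkshire values. The log2 fold change was 0.38 ± 0.12 (SE), with an unadjusted p of 0.00618 and an adjusted p of 0.912 by edgeR. With any single library left out it stayed between 0.35 and 0.45. The gene overlaps DLD, which averaged 16.0 FPKM, by 2432 bases on the opposite strand, and reads of that stretch cannot be told apart if counting ignored strand.

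LAMA4 (ENSSSCG00000004425; chromosome 1, 78071458 to 78224365) ran from 6.06 to 8.69 FPKM in Laiwu (median 7.05) and from 4.09 to 7.16 FPKM in Yorkshire (median 5.35). The 3 highest libraries were Laiwu, the 4 lowest Yorkshire. Its log2 fold change was 0.33 ± 0.13 (SE, unadjusted p = 0.0225, adjusted p = 0.912 by edgeR), and 0.21 without Yorkshire 3 and Yorkshire 5 (unadjusted p = 0.111 by edgeR). That unadjusted p was also above 0.05 without Laiwu 4, the highest library. The summed FPKM of 5 adipocyte markers, of which 4 were tested and all 4 were higher in Laiwu at an unadjusted p under 0.05, was 28.6 to 155.9 in Laiwu (median 65.3) and 20.1 to 57.5 in Yorkshire (median 29.6). Its part in the level of LAMA4, a chain of fat cells too, was not tested.

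ITGA10, a collagen-binding subunit best known from cartilage (ENSSSCG00000006687; chromosome 4, 99423117 to 99440749), ran from 0.666 to 1.02 FPKM in Laiwu (median 0.865) and from 0.371 to 0.735 FPKM in Yorkshire (median 0.665). Of the Laiwu libraries 5 lay above all of Yorkshire, and the lowest value belonged to Yorkshire 5. Its log2 fold change was 0.47 ± 0.16 (SE, unadjusted p = 0.0106, adjusted p = 0.912 by edgeR), 0.37 without Yorkshire 5, and 0.20 by limma on log2(FPKM + 1), a scale that shrinks changes of low genes.

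ITGA9, a subunit known from lymphatic valves and smooth muscle (ENSSSCG00000011245; chromosome 13, 22298770 to 22655704), ran from 0.866 to 1.48 FPKM in Laiwu (median 1.19) and from 0.674 to 1.14 FPKM in Yorkshire (median 0.806). The 4 lowest libraries were Yorkshire, while Yorkshire 3 and Yorkshire 6 lay among the Laiwu values. For ITGA9 the log2 fold change was 0.43 ± 0.17 (SE, unadjusted p = 0.0231, adjusted p = 0.912 by edgeR), and 0.22 by limma on log2(FPKM + 1). The unadjusted p was above 0.05 without Laiwu 1, without Laiwu 5, without Yorkshire 4, and without Yorkshire 3 and Yorkshire 5 together.

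**Figure D4:**
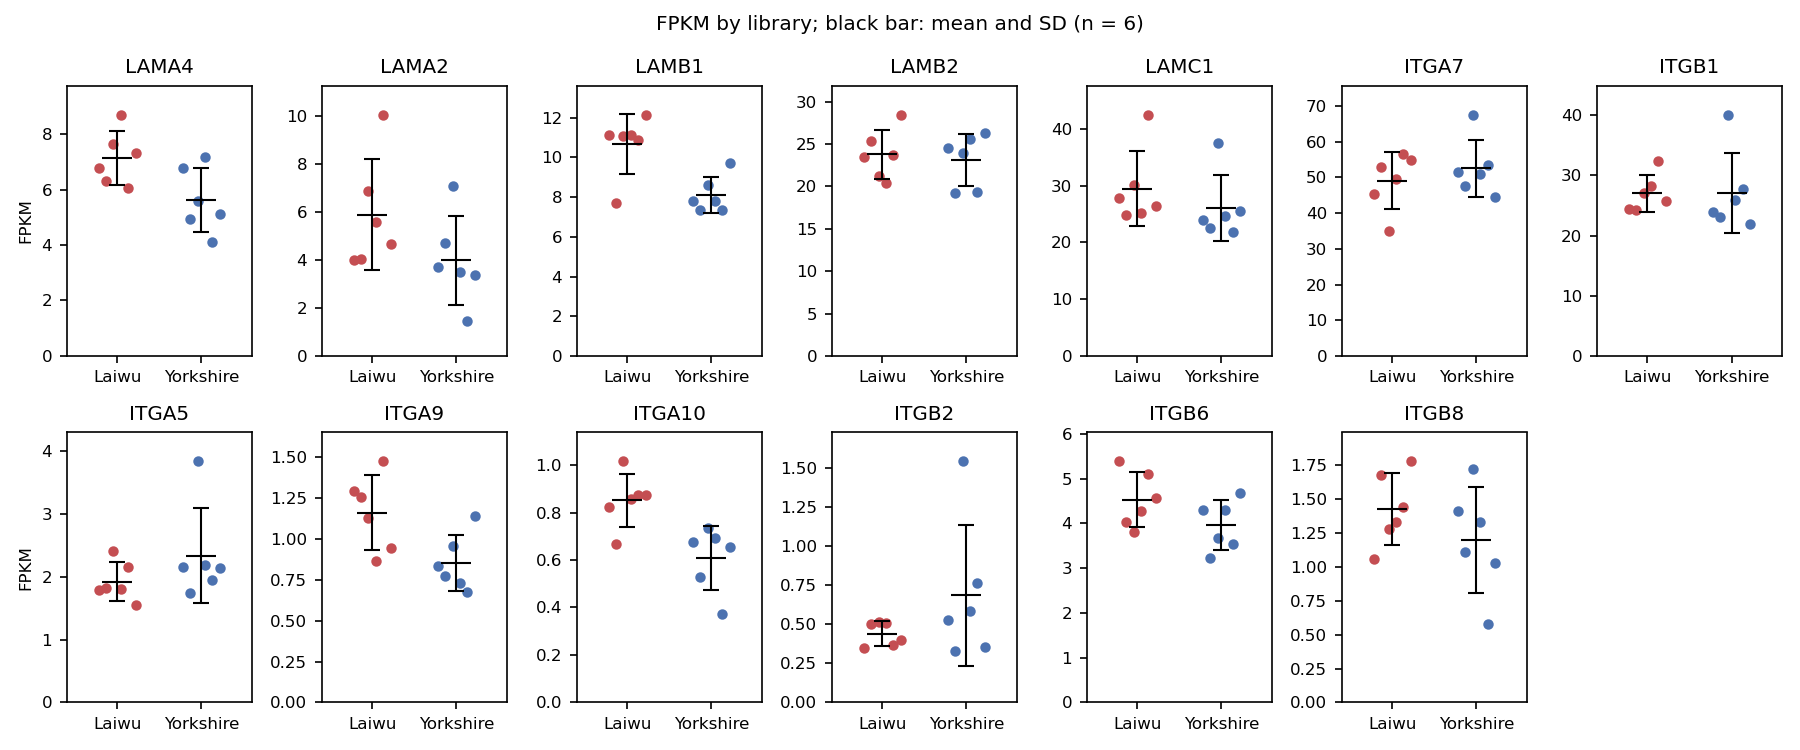
FPKM of 12 members and LAMA2 by library, Laiwu in red and Yorkshire in blue, with the mean and SD (n = 6) in black and each axis starting at 0. LAMB1 and ITGA10 have 5 Laiwu points above all Yorkshire points, and the high Yorkshire point of LAMC1, ITGA7, ITGB1, ITGA5 and ITGB2 is Yorkshire 3.

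LAMC1 ran from 24.9 to 42.5 FPKM in Laiwu (median 27.1) and from 21.9 to 37.5 FPKM in Yorkshire (median 24.4). Each breed had 1 library well above its others, Laiwu 5 and Yorkshire 3, and the log2 fold change of LAMC1, 0.17 ± 0.14, was 0.04 without Laiwu 5 and 0.25 without Yorkshire 3. LAMB2 ran from 20.4 to 28.4 FPKM in Laiwu and from 19.3 to 26.2 FPKM in Yorkshire, with medians of 23.6 and 24.2 FPKM. Its log2 fold change was 0.02 ± 0.11 and that of ITGB1 -0.01 ± 0.12, and both changed sign when some single libraries were left out. ITGA7 had a log2 fold change of -0.11 ± 0.12, which was -0.03 without Laiwu 3, the lowest library, and -0.07 without Yorkshire 3, the highest.

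LAMA2 ran from 4.01 to 10.05 FPKM in Laiwu (median 5.14) and from 1.48 to 7.09 FPKM in Yorkshire (median 3.61). Its log2 fold change of 0.56 ± 0.30 (SE, unadjusted p = 0.0884, adjusted p = 0.912 by edgeR) was 0.34 without Laiwu 5, the highest library, and 0.39 without Yorkshire 5, the lowest and the one that deviates with gene length. Without Yorkshire 3, the highest of its breed, it was 0.74 (unadjusted p = 0.0264, adjusted p = 0.889 by edgeR), and without both Yorkshire 3 and Yorkshire 5 it was 0.56 (unadjusted p = 0.0477, adjusted p = 0.974 by edgeR).

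ITGB6 and ITGB8 had log2 fold changes of 0.18 ± 0.13 and 0.25 ± 0.19 (SE). ITGB6 ran from 3.82 to 5.38 FPKM in Laiwu (median 4.41) and from 3.23 to 4.68 FPKM in Yorkshire (median 3.99), and its log2 fold change was 0.10 without Laiwu 1 and 0.09 without Yorkshire 3 and Yorkshire 5. ITGB8 ran from 1.06 to 1.78 FPKM in Laiwu (median 1.39) and from 0.582 to 1.73 FPKM in Yorkshire (median 1.22), and its log2 fold change was 0.115 without Yorkshire 5. Yorkshire 5 was the lowest library for ITGB8.

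ITGB2 and ITGA5 had lower fitted values in Laiwu. ITGB2 ran from 0.345 to 0.517 FPKM in Laiwu (median 0.451) and from 0.326 to 1.54 FPKM in Yorkshire (median 0.556). The log2 fold change of ITGB2 was -0.61 ± 0.30 (SE, unadjusted p = 0.0606, adjusted p = 0.912 by edgeR), -0.27 without Yorkshire 3, -0.06 without both Yorkshire 3 and Yorkshire 5, and -0.19 by limma on log2(FPKM + 1). ITGA5 ran from 1.55 to 2.42 FPKM in Laiwu (median 1.81) and from 1.74 to 3.84 FPKM in Yorkshire (median 2.15). Its log2 fold change was -0.28 ± 0.15, and -0.14 with Yorkshire 3 left out. In both genes the high end of Yorkshire was Yorkshire 3, the library with the highest leukocyte marker sum. Of these markers PTPRC, CD68, CSF1R, CD163 and LAPTM5 were highest in Yorkshire 3. CORO1A, CD3E and CD79A, at 0.956, 0.269 and 0 FPKM there, were higher in other libraries. The part of leukocyte RNA in the levels of ITGB2 and ITGA5 was not tested.

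ITGAL, ITGB5, LAMA5, ITGAV, ITGB3, ITGA6, ITGA1 and ITGB4 were tested too, and their log2 fold changes ran from -0.21 ± 0.25 for ITGAL to 0.07 ± 0.19 for ITGAV (SE), with unadjusted p-values by edgeR of 0.411 to 0.973. ITGAV ran from 2.27 to 4.23 FPKM in Laiwu and from 1.85 to 4.59 FPKM in Yorkshire. ITGA6 ran from 2.15 to 3.503 FPKM in Laiwu and from 1.65 to 4.32 FPKM in Yorkshire. LAMA5 ran from 1.93 to 3.86 FPKM in Laiwu and from 2.31 to 4.75 FPKM in Yorkshire. For ITGAV, ITGA6 and LAMA5, Yorkshire 3 was the highest of all 12 libraries.

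With edgeR's own low-count filter, 33 members and 15068 genes were tested, 6 members had an unadjusted p under 0.05 against 4.04% of these genes, and 0 were called. The 2 members added at that level were ITGA11 and ITGAD. ITGA11, the collagen receptor of fibroblasts, ran from 0.306 to 0.773 FPKM in Laiwu (median 0.515) and from 0.134 to 0.407 FPKM in Yorkshire (median 0.294), and 5 Laiwu libraries lay above all of Yorkshire. In that fit its log2 fold change was 0.86 ± 0.28 (SE, unadjusted p = 0.00719, adjusted p = 0.974 by edgeR). The highest library was Laiwu 4 and the lowest Yorkshire 5. Laiwu 4 also had the highest sum, 596.1 FPKM, of 6 markers of fibro-adipogenic progenitors, which form connective tissue and fat in muscle. Of these, COL3A1, DCN, COL1A1 and LUM were highest in Laiwu 4. PDGFRA was highest in Yorkshire 3 (4.76 FPKM, against 3.31 in Laiwu 4) and CLEC3B in Laiwu 3 (30.9 FPKM, against 21.8 in Laiwu 4). That sum had a median of 425.6 FPKM in Laiwu (217.5 to 596.1) and 314.1 FPKM in Yorkshire (245.2 to 425.1), 6 of the 6 markers had a log2 fold change above 0 and 0 an unadjusted p under 0.05, and its part in the levels of ITGA11, ITGA10, LAMB1 and LAMA4 was not tested. ITGAD ran from 0.0763 to 0.406 FPKM in Laiwu and from 0.0441 to 0.129 FPKM in Yorkshire, with 13 to 120 counts per library and a log2 fold change of 1.16 ± 0.40 (unadjusted p = 0.0120, adjusted p = 0.974 by edgeR).

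Within the breeds, some libraries were the highest or lowest for several members. The same counts were not taken over all tested genes, so they are not shown to be particular to the members. Yorkshire 3 was the highest Yorkshire library for 11 of the 21 tested members and the lowest for 0, and Yorkshire 5 was the lowest for 9 and the highest for 0. Yorkshire 2 was close to this, the lowest for 7 and the highest for 0. In Laiwu the counts were more even, Laiwu 3 being the highest for 7 and Laiwu 5 for 6. On the log2 scale, the median deviation of the tested members from their breed's median was 0.0995 in Yorkshire 3 and -0.079 in Yorkshire 5. This deviation was of similar size in Laiwu 3 (0.080) and Laiwu 2 (-0.077). The spread of the members within breeds had a median coefficient of variation of 22.4%, beside 20.5% for all tested genes. It was 12.8% for LAMB2, 13.4% for LAMB1 and 13.8% for ITGB6, and 43.9% for ITGB4 and 57.4% for ITGB2.

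**Figure D5:**
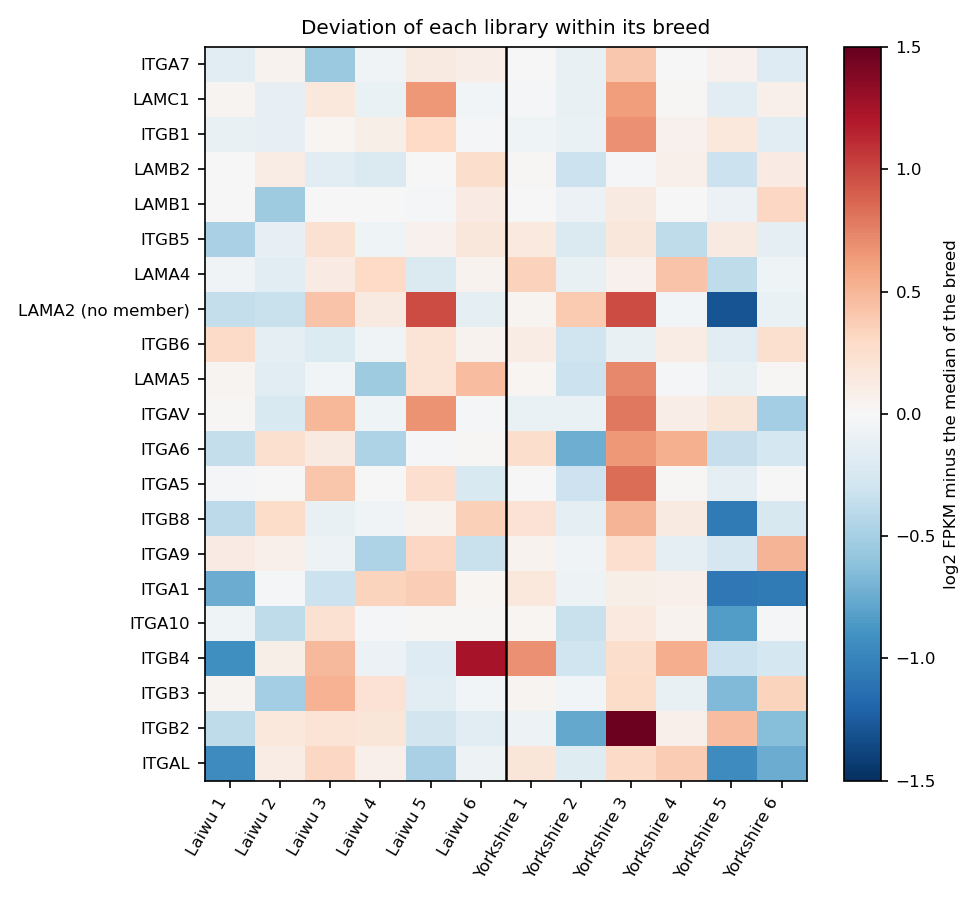
Log2 FPKM of 20 tested members and LAMA2 in each library minus the median of its breed, from blue (lower) to red (higher), genes ordered by level. The column of Yorkshire 3 is mostly red and that of Yorkshire 5 mostly blue, with LAMA2 at 7.09 and 1.48 FPKM.

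Known partners were compared across the 12 libraries on log2(FPKM + 1), as 6 pairs. LAMA2 and LAMC1, chains of one laminin, had a Pearson's r of 0.82 (permutation p = 0.00036, adjusted over 6 pairs 0.00216) and a Spearman's rho of 0.69 (permutation p = 0.0170, adjusted 0.0425). Within Laiwu r was 0.88 and within Yorkshire 0.75, with exact permutation p-values of 0.0333 and 0.140 that were 0.200 and 0.344 once adjusted over 12 within-breed relations. Without Yorkshire 5 and Laiwu 5, the libraries farthest from the median of LAMA2, r was 0.70 and the adjusted permutation p 0.0507, so the relation missed the threshold without them.

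ITGA7 and ITGB1 had an r of 0.59 (permutation p = 0.0623, adjusted 0.125) and a rho of 0.54 (permutation p = 0.0742, adjusted 0.0891). In Yorkshire r was 0.98 (exact permutation p = 0.00278, adjusted 0.0333) and in Laiwu 0.20 (exact permutation p = 0.671, adjusted 0.732), and the difference between the breeds was not tested. Yorkshire 3 was the highest of its breed in both genes, and without it and Laiwu 3 the r over the other 10 libraries was 0.69 (adjusted permutation p = 0.0507). The pairs LAMB1 with LAMC1 (r of 0.46), LAMA4 with LAMB1 (0.58), ITGB2 with PTPRC (0.50) and ITGA5 with FN1 (0.26) had adjusted permutation p-values of 0.176, 0.125, 0.162 and 0.459 for r. For rho the adjusted permutation p was 0.0425 for LAMB1 with LAMC1 (rho of 0.67) and for LAMA4 with LAMB1 (0.71), 0.0772 for ITGB2 with PTPRC (0.58) and 0.816 for ITGA5 with FN1 (0.08). Within Laiwu and Yorkshire, LAMA4 with LAMB1 had an r of 0.46 and 0.07 (exact permutation p = 0.354 and 0.911). LAMB1 with LAMC1 had 0.24 and 0.50 (exact permutation p = 0.536 and 0.2625). LAMA4 and LAMB1 both had higher means in Laiwu, and the part of the breed in their rho was not tested.

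The genes that work with integrins and laminins were counted in 4 lists, and 0 members of any list were called by edgeR. Over all tested genes, 4.44% stood at an unadjusted p under 0.05, 2.14% higher and 2.3% lower in Laiwu. Of the integrin adaptors, which link the beta tails to actin, 19 of 21 were tested, 9 with a log2 fold change above 0 and 10 below, at a median of -0.0042, and 2 stood at an unadjusted p under 0.05, both lower in Laiwu. These were ZYX, a focal adhesion protein, at 11.2 ± 2.36 and 16.1 ± 6.12 FPKM (unadjusted p = 0.0293, adjusted p = 0.912 by edgeR), and BCAR1, a scaffold of integrin signalling, at 6.01 ± 0.684 and 7.19 ± 1.25 FPKM (unadjusted p = 0.0341). Without Yorkshire 3 and Yorkshire 5 their unadjusted p-values by edgeR were 0.312 and 0.160. The adaptors of highest level were the muscle chaperone ITGB1BP2, at 51.9 ± 17.5 and 62.3 ± 17.2 FPKM, and the kinase-like ILK, at 32.1 ± 1.81 and 36.6 ± 4.33 FPKM.

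Of the dystroglycan complex and other laminin receptors, 10 were tested, 8 were above 0 and 2 below, at a median of 0.11, and 0 had an unadjusted p under 0.05. RPSA, a ribosomal protein also known as a laminin receptor, was at 203.4 ± 14.9 and 231.3 ± 39.6 FPKM, and SGCB, a sarcoglycan, at 96.5 ± 9.72 and 84.2 ± 13.9 FPKM. Of the partners of laminin in the basement membrane, 8 of 12 were tested, 6 were above 0 and 2 below, at a median of 0.19. NID1, the nidogen that binds the laminin gamma chain to type IV collagen, was the gene at an unadjusted p under 0.05 (unadjusted p = 0.0369, adjusted p = 0.912 by edgeR), with means of 13.3 ± 2.61 and 10.5 ± 1.46 FPKM. Without Yorkshire 3 and Yorkshire 5 its unadjusted p by edgeR was 0.0804. The type IV collagen genes COL4A1 and COL4A2 were at 54.2 ± 11.8 and 47.4 ± 9.51 FPKM and at 33.3 ± 7.35 and 29.8 ± 6.01 FPKM.

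Of the other integrin ligands, 11 of 13 were tested, 4 were above 0 and 7 below, at a median of -0.10. FBN1, the microfibril protein fibrillin, was at 6.77 ± 2.48 and 4.06 ± 1.14 FPKM (unadjusted p = 0.0123, adjusted p = 0.912 by edgeR). SPP1, the ligand osteopontin, was at 1.32 ± 1.04 and 15.1 ± 30.3 FPKM (unadjusted p = 0.0174, adjusted p = 0.912 by edgeR), and its Yorkshire values ran from 0.407 to 76.7 FPKM around a median of 2.12, with Yorkshire 3 at the top. The log2 fold change of SPP1, -3.40 ± 1.23 (SE), was -1.18 without Yorkshire 3 (unadjusted p = 0.173 by edgeR) and -0.06 without Yorkshire 3 and Yorkshire 5 (unadjusted p = 0.938 by edgeR). FN1, fibronectin, was at 13.4 ± 4.73 and 9.21 ± 3.79 FPKM, and MFGE8 at 9.27 ± 0.645 and 11.1 ± 2.90 FPKM.

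Several members lie beside or across other genes, which bears on how far their counts are their own. LAMB1 and LAMB4 lie 6229 bases apart on one strand of chromosome 9. ITGA1 and ITGA2 are neighbours on chromosome 16, and ITGAD and ITGAM on chromosome 3. In all, 8 members overlap another listed gene. Besides LAMB1 these include ITGA7, with 1010 bases shared with BLOC1S1 (22.7 FPKM) on the other strand, LAMA5, with 628 bases shared with ADRM1 (27.3 FPKM) on the other strand, and ITGA1, with 6254 bases shared with PELO (2.84 FPKM) on its own strand.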

How the data were processed

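The members and gene lists were chosen with earlier results of these data known. Reads were aligned with HISAT2 2.2.1 to Sscrofa11.1, per the series' design text; cutadapt 1.9, StringTie 1.3.4d, edgeR and DESeq2 appear in the submitters' processing notes with no role stated. Not given in the sources used here are the annotation release and whether counting used the strand that the dUTP kit marks. Per the file headers, the authors deposited the raw count of each gene and library beside its FPKM. Where a library lists 0, counting error alone leaves room for 3 counts (0.0446 to 0.0546 CPM).

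Genes averaging 0.5 FPKM or more were tested with edgeR 4.0.16 (TMM, robust quasi-likelihood, R 4.3.3), Laiwu minus Yorkshire, over the whole table, with each SE derived from the F statistic. The test was also run on simulated counts with 200 changed genes, and the outcome is not given here. Those counts were drawn for each gene separately, with no library that deviates with gene length. limma 3.58.1 and DESeq2 1.42.0 (no adjusted p for 10 genes) served as alternatives, beside other scalings, filters, pseudocounts of 1 and 0.1, a replicate block and leaving out libraries. Correlations used 100000 resamples over 12 libraries and exact permutation within breeds, two-sided. Values per library and fold changes are given for a fixed panel (ITGA7, ITGB1, LAMA2, LAMB1, LAMB2, LAMC1) and the 10 tested members of smallest p, and of each pathway list the 2 genes of highest level and those with an unadjusted p under 0.05. ITGA11 and ITGAD were chosen after their values were seen. A table of gene names supplied symbols for 130 of the 8541 IDs that lack one. ITGAX was not analysed here, and 1 tested member that the rule names is counted but not reported here.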

Additional observations from a re-analysis of the deposited data

Results flagged for a closer look

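In 9 of 58 groups of 6 libraries (levels of the tested members and LAMA2, and 7 shares, in each breed) the highest or lowest library stood far from its neighbour by Dixon's ratio. About 2.9 would be expected from normally distributed values. The groups come from the same 12 libraries and are not independent, so an excess over chance is not shown. Yorkshire 3 was the high library in 5 of them, at 3.84 FPKM for ITGA5 (next 2.18), 40.05 FPKM for ITGB1 (next 27.8), 37.5 FPKM for LAMC1 (next 25.6), 1.54 FPKM for ITGB2 (next 0.765) and 4.75 FPKM for LAMA5 (next 2.94). In Laiwu, LAMC1 was high in Laiwu 5 at 42.5 FPKM (next 30.2), and LAMB1 was low in Laiwu 2 at 7.70 FPKM (next 10.9). ITGA7 held 68.5% of the integrin alpha sum in Laiwu 3 (next 78.4%), and ITGB6 held 14.3% of the integrin beta sum in Laiwu 1 (next 10.5%). The causes were not tested.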

How the results depend on the processing

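No member was called under the alternatives for which calls were counted, and edgeR and limma called 0 genes in all of them; DESeq2 called 1 gene, which is no member. The number of members at an unadjusted p under 0.05 was 3 to 5 of 21 with 1 library left out (2.53% to 5.85% of all genes in the same fits), 9 of 36 with no filter on FPKM (7.37% of all genes) and 2 of 21 without both Yorkshire 3 and Yorkshire 5 (3.69% of all genes), a choice made after seeing the data; those 2 were LAMB1 and ITGA10, which kept an unadjusted p under 0.05 in all 22 alternatives, where LAMA4 did in 20 and ITGA9 in 18. The adjusted p of these 4 genes ran from 0.499 to 0.999. The median log2 fold change of the tested members ran from -0.028 to 0.080 over the alternatives. Of 308 refitted log2 fold changes of the 14 genes followed, 14 changed sign, all of ITGB1 or LAMB2. That of ITGB1 was 0.018 and 0.019 by limma with pseudocounts of 1 and 0.1, ran from -0.068 to 0.082 with 1 library left out, and was 0.14 without Yorkshire 3 and 5. That of LAMB2 ran from -0.028 to 0.077 with 1 library left out and was -0.051 without Yorkshire 3 and 5. With the replicate block 4 members had an unadjusted p under 0.05 and 0 were called. The labels do not say whether equal replicate numbers of the 2 breeds share more than the number. Of 6 such pairs 1 correlated above 0.1 (from -0.29 to 0.30), and 1 of 12 libraries correlated best with its own number. These correlations do not settle the question. On raw counts, which favour long genes, the shares in Laiwu and Yorkshire were 27.0% and 35.3% for LAMA5 and 74.1% and 74.3% for ITGB1. In the same order they were 37.3% and 35.8% for LAMA4, 34.9% and 29.6% for LAMB1, and 73.6% and 76.1% for ITGA7. For LAMA2 they were 32.6% and 26.5%, so in Yorkshire the mean share of LAMA5 exceeded that of LAMA2 on raw counts, but not by FPKM. The r of LAMA2 with LAMC1 was 0.70 without the 2 libraries farthest from the median of LAMA2, with an adjusted permutation p of 0.0507.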
